A study of Homo sapiens with 2 samples.

Results

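The 10 genes described here encode matrix metalloproteinases (MMP1, MMP2, MMP11, MMP14 and MMP15), their tissue inhibitors (TIMP1, TIMP2 and TIMP3), the urokinase plasminogen activator PLAU and its receptor PLAUR. They were taken as every probe set to which the platform annotation gives one of these symbols alone, which came to 27 of the 54613 probe sets that are not array controls, and to 10 of 19775 genes with a probe set of their own. The samples were 2 cultures of CL1-0, an established human lung adenocarcinoma line, each measured on 1 Affymetrix expression array. One culture was stably transduced with a control vector and the other with a vector that expresses FDFT1, which encodes squalene synthase. Both had been kept under puromycin for 2 weeks, and neither vector's promoter nor the number of clones is given in the labels. Work on squalene synthase in lung cancer invasion has drawn attention to TNF receptor signalling and to MMP1, and the question here is how far RNA of this proteolytic system differed between the cultures. FDFT1 itself was not analysed here. Since each group has a single array, there is no replicate error, test or p-value, and each value below compares these 2 arrays and not the conditions.

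Matrix metalloproteinases are zinc enzymes that cut collagens and other matrix proteins. They are made as inactive precursors and blocked by TIMP proteins, so proteolysis outside the cell depends on the enzyme, its activator and its inhibitor. Urokinase cuts plasminogen to plasmin, and its receptor holds that reaction at the cell surface. In lung tumours both systems are known for their part in invasion, and much of the metalloproteinase RNA of a tumour comes from its stromal cells, which a cell line lacks.

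Of the 5 metalloproteinases described here, MMP14 alone had a probe set above the background reference on both arrays. The inhibitor TIMP2 gave clear signals that hardly differed between the arrays. Among the 16 probe sets that could be compared, MMP1 was 2.06-fold higher with FDFT1 after median centring of the arrays but under 2-fold with the other 3 scalings, and 1 MMP11 probe set was 2.02-fold lower while another was higher. PLAUR was 1.59-fold higher on 1 probe set and 1.12-fold lower on another. PLAU was under the floor on both arrays.

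Signals are deposited MAS5 intensities, on a linear scale. A probe set was counted as measured if its higher signal, after centring, reached the median of all signals, 12.2, which served as a floor for lower values. A reference for background came from 194 probe sets of olfactory receptor, taste receptor and keratin-associated protein genes, families that are silent in most tissues. Their median signal was 3.48, and 95% of their signals lay below 16.2. Of the 27 probe sets, 11 were under the floor on both arrays, and 1 was measured but below the reference of 16.2. Another 5 reached the reference on 1 array, and 10 reached it on both. Of these 10, 7 belonged to TIMP genes, 2 to PLAUR and 1, for MMP14, to a metalloproteinase. Signals of different probe sets depend on their probes, so they are set here against background and not against each other.

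**Figure D1:**
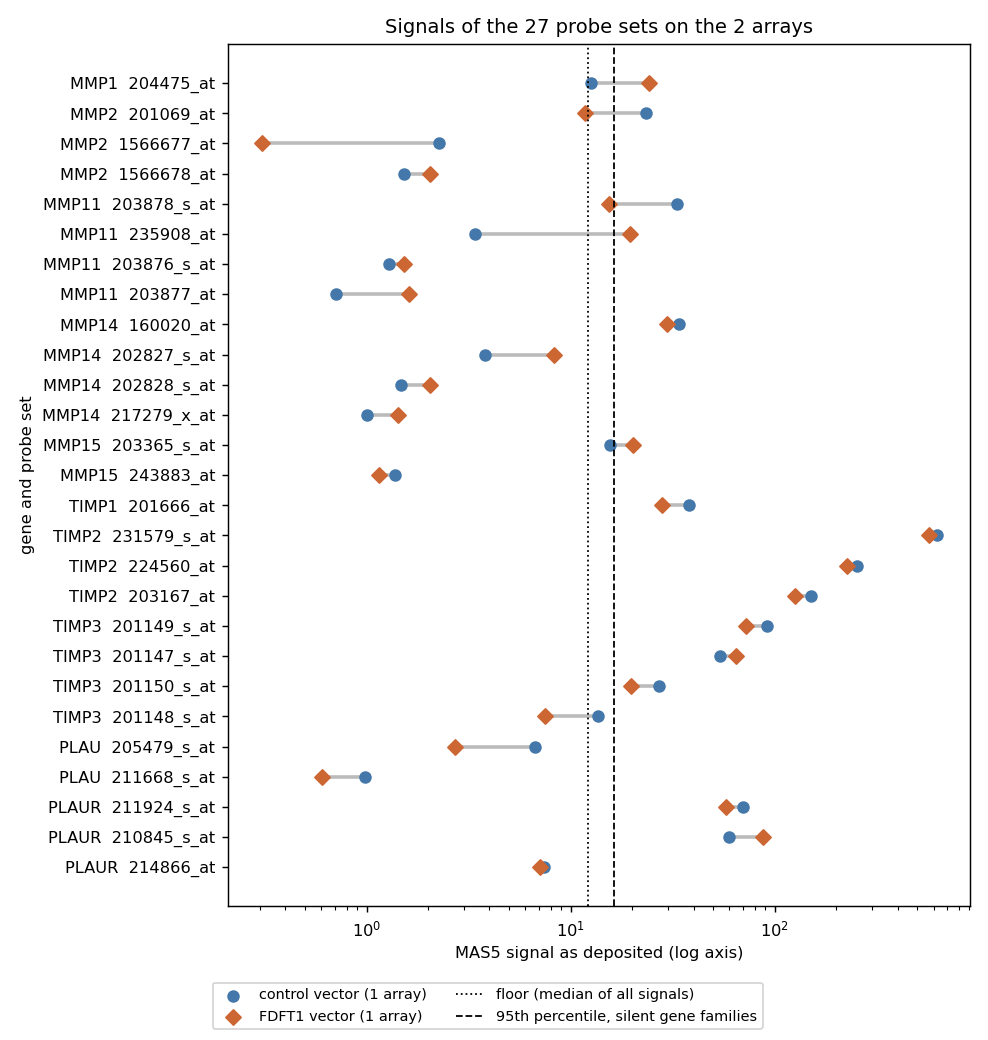
MAS5 signals as deposited (log axis) of the 27 probe sets, with circles for the control and diamonds for the FDFT1 array, with the floor at 12.2 and the silent-family reference at 16.2 as vertical lines. The TIMP2 pairs lie far to the right and nearly coincide, whereas the measured pairs of MMP1, MMP2, MMP11 and MMP15 straddle or border the lines and the 11 pairs under the floor, both PLAU pairs among them, lie left of them.

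Differences are FDFT1 minus control on the log2 scale after centring. The FDFT1 array was lower by a median of 0.11 over all probe sets at or above the floor on both arrays, a shift that the centring removed. A difference with 1 value under the floor is a bound on the centred scale only and carries the centring shift. The error beside a difference comes from the brightest 2 probe sets of a gene at a like signal. It is the SD of the gap between their differences, divided by the square root of 2. The gaps were taken after the floor was applied, which can narrow them at low signals. The error covers probe error and transcript differences, not differences between cultures. It ranged from 0.49 for a mean log2 signal under 5 to 0.10 above 11. Of the 16 measured probe sets 8 fell in the dimmest of these ranges, 5 in the next (log2 5 to 7), 2 at 7 to 9 and 1 at 9 to 11.

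Of the 16 measured probe sets 1 was at least 2-fold higher and 1 at least 2-fold lower. The count of higher probe sets was 0 as deposited, after quantile normalization and after loess, and the count of lower ones stayed at 1. Over all 29443 measured probe sets, 0.829% were at least 2-fold higher and 0.734% lower, and among those with a mean log2 signal under 5, where both of these probe sets lay, 1.92% and 1.83%. At 1.5-fold, 3 were higher and 2 lower, against 5.39% and 4.46% of all. Those at 1.5-fold belonged to MMP1, PLAUR and MMP11 on the higher side and to MMP2 and MMP11 on the lower side. All of these except the PLAUR probe set had a mean log2 signal under 5. No 1.5-fold share was computed for that range, so these counts and shares are not matched for signal. In all, 11 of the 16 lay below 0, against 49.5% of all measured probe sets, and 11 lay within 0.5 of 0, against 86%. The 86% includes 3265 probe sets below the silent-family reference, where the floor limits a difference and all lay within 0.5. Of those that reached the reference, 10 of 15 lay within 0.5, against 84.3% of all such probe sets. These shares are not matched for signal either. The median of the 16 was -0.10, beside 0.0036 over all measured probe sets.

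**Figure D2:**
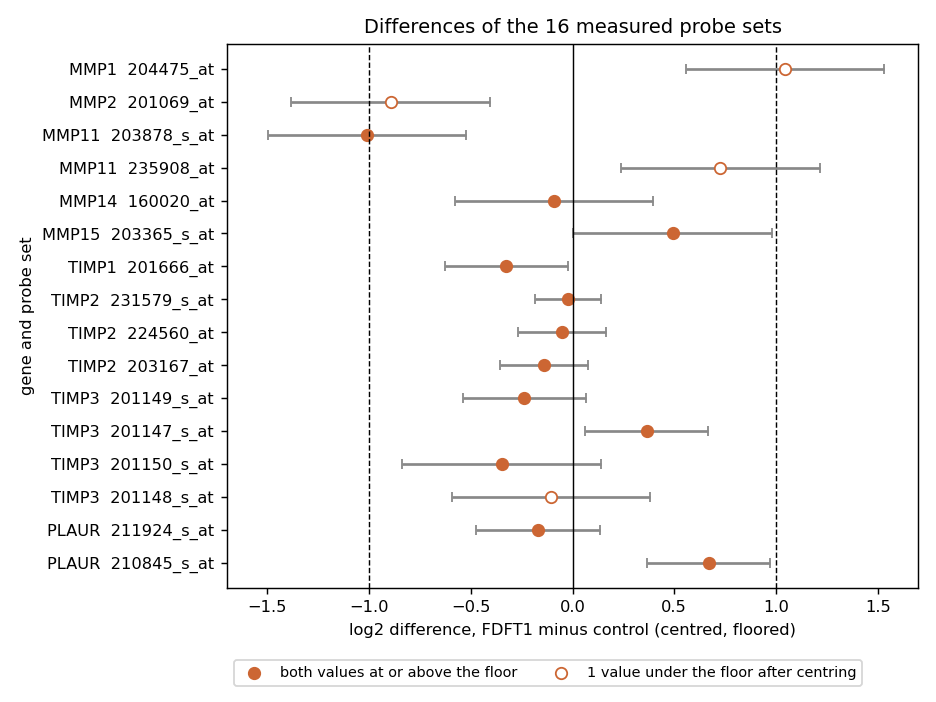
Log2 differences (FDFT1 minus control, centred) of the 16 measured probe sets, with bars for 1 probe set error each way and dashed lines at 2-fold; open symbols have 1 value under the floor after centring. MMP1 at 1.04 and an MMP11 probe set at -1.01 lie at the dashed lines, and the TIMP2 probe sets lie between -0.14 and -0.02.

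MMP1, the interstitial collagenase that opens fibrillar collagen, had 1 probe set (204475_at). Its signal was 12.6 with the control vector and 24.2 with FDFT1. The control value lay just above the floor as deposited, just below it after centring, and below the silent-family reference, and the FDFT1 value was above both. In a culture measured as a whole, fewer cells with the RNA and less RNA per cell cannot be told apart. Relative to silent-family signals, the control value exceeded 92.5% and the FDFT1 value 97.4%. The difference was 1.04 with an error of 0.49, or 2.06-fold on the centred scale. It placed MMP1 at percentile 99.4 of all measured probe sets. As deposited, without centring, the difference was 0.94, after quantile normalization 0.99 and after loess 0.97, so that of these 4 scalings median centring alone put it past 2-fold, while its sign was the same in all.

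MMP1 lies in a run of metalloproteinase genes, between MMP10 and MMP3 in the RefSeq gene order. MMP10, stromelysin-2, gave 36.5 on the control array and 50.9 with FDFT1, a difference of 0.59 with an error of 0.30. MMP3, stromelysin-1, was under the floor at 5.68 and 3.91. The next genes of the run, MMP8, MMP27, MMP20, MMP12 and MMP13, were under the floor on both arrays too. Of the genes named in this paragraph MMP1 and MMP10 alone were measured. Only the nearest genes on either side were looked up, so the run may extend further.

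MMP2, the gelatinase that cuts type IV collagen of basement membranes, was lower with FDFT1 on the probe set that was measured (201069_at), from 23.5 to 11.7. The groups' values lay on either side of the floor. The difference was -0.89 with an error of 0.49, a bound of at least 1.86-fold, and lay between -0.95 and -0.89 under the 4 scalings. The other 2 probe sets were under the floor, at 2.26 and 0.306 for 1566677_at and 1.52 and 2.05 for 1566678_at.

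MMP11, stromelysin-3, which furin activates inside the cell, gave opposite readings on its 2 measured probe sets. On 203878_s_at the signal was 33.3 with the control vector and 15.3 with FDFT1, a difference of -1.01 with an error of 0.49. On 235908_at it was 3.40 and 19.4, a bound of 0.73 with the same error. The gap of 1.74 between them was 2.52 times the error of such a gap, so these probe sets do not give MMP11 one direction. The remaining probe sets, 203876_s_at (1.29 and 1.53) and 203877_at (0.707 and 1.62), were under the floor.
The RefSeq sequence (GRCh38.p14) of the 250 bases before the MMP11 start, on the plus strand, is printed for the gene whose probe sets disagree most; capitals mark the matches to the GC box GGGCGG, the site of Sp1-type factors, found 68, 41 and 25 bases upstream (first base, counted from the start).
MMP11 promoter, chr22:23772599-23772848: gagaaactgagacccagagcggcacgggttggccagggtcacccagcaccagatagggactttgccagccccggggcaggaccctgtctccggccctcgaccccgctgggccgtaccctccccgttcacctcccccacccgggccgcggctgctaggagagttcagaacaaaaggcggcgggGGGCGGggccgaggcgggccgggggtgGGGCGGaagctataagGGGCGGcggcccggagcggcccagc

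MMP14 and MMP15 are membrane-anchored enzymes; MMP14 activates the MMP2 precursor in a complex with TIMP2. MMP14 was measured on 1 of 4 probe sets (160020_at), at 34.0 on the control array and 29.6 with FDFT1. The difference, -0.09, was smaller than its error of 0.49. The other 3, including the _s_at probe set 202827_s_at at 3.79 and 8.25, were under the floor. MMP15 gave 15.5 and 20.3 on 203365_s_at, from just below to just above the silent-family reference, and 1.38 and 1.15 on 243883_at, under the floor. The MMP15 difference was 0.49, as large as its error of 0.49.

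**Figure D3:**
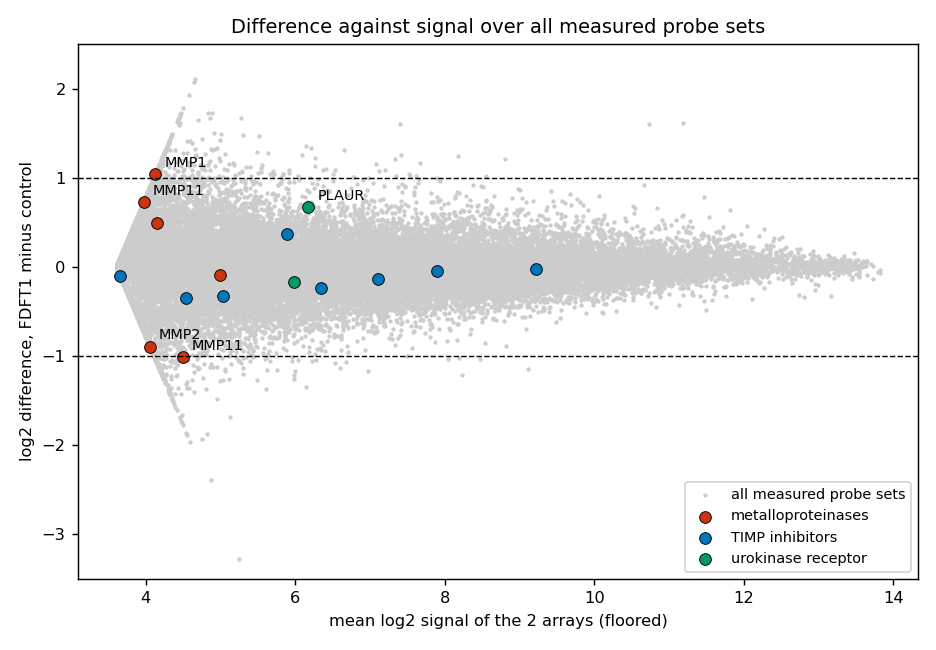
Log2 difference against mean log2 signal for all 29443 measured probe sets (grey) and for the metalloproteinases, TIMP inhibitors and PLAUR (coloured), with dashed lines at 2-fold. The 6 metalloproteinase points lie at the dim left edge, where grey points are most spread and the floor gives the cloud its slanted border, and the TIMP2 points lie near 0 at higher signals.

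The inhibitors were measured on all 8 of their probe sets. All 8, from 3 genes, differed by less than 0.5, against 86% of all measured probe sets. Of the 8, 7 lay below 0, against 49.5% of all, and the median was -0.12. For TIMP3 201148_s_at the floor limits the value, which was -0.10 with the floor and -0.68 with no floor and a pseudocount of 1. TIMP2, which binds MMP2 and takes part in its activation, gave 622 on the control array and 569 with FDFT1 on 231579_s_at. It gave 252 and 226 on 224560_at, and 150 and 126 on 203167_at. These signals exceeded 99.5% of silent-family signals. The 3 differences, -0.02, -0.05 and -0.14, were below 0 under each of the 4 scalings, and each was smaller than its error of 0.16 to 0.22. They lay within 0.12 of each other, which makes TIMP2 the member gene with the closest agreement between probe sets among the 4 that had more than 1 measured.

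TIMP1, which also binds the precursor of MMP9, had 1 probe set (201666_at) at 37.9 on the control array and 28.1 with FDFT1. The difference was -0.33 with an error of 0.30, and -0.43 as deposited. TIMP3, the inhibitor that stays bound to the matrix and also blocks ADAM17, had 4 measured probe sets that did not share a sign. It was lower on 201149_s_at (91.6 and 72.3, difference -0.24), 201150_s_at (27.2 and 19.8, -0.35) and 201148_s_at (13.6 and 7.51, a bound of -0.10). On 201147_s_at it was higher, at 54.2 and 64.7, with a difference of 0.36. The errors were 0.30 for 201149_s_at and 201147_s_at and 0.49 for the others, and the largest gap between these probe sets, 0.71, was 1.24 times its error.

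PLAU, the urokinase plasminogen activator, stayed under the floor. Its signals were 6.66 on the control array and 2.70 with FDFT1 on 205479_s_at, and 0.981 and 0.606 on 211668_s_at. These values fall inside the bulk of silent-family signals, so no difference is given. PLAUR, its membrane-anchored receptor, was well above the reference on both arrays on 2 of its 3 probe sets.

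On 210845_s_at PLAUR gave 59.4 on the control array and 87.7 with FDFT1, a difference of 0.67 with an error of 0.30. This placed it at percentile 96.2 of all measured probe sets, and it lay between 0.56 and 0.69 under the 4 scalings. On 211924_s_at the order was the reverse, 69.6 and 57.5, with a difference of -0.17 and an error of 0.30. The gap between these probe sets, 0.84, was 1.96 times its error. The third, 214866_at, was under the floor at 7.43 and 7.10. PLAUR was therefore higher on 1 measured probe set and not on the other, and both are of the kind that can match several transcripts of a gene.
The 250 bases before the PLAUR start, on the minus strand, follow (RefSeq, GRCh38.p14). They are shown because PLAUR is the only one of the genes matched in the promoter table whose window held the AP-1 motif TGANTCA, the site of JUN and FOS proteins, here 186 to 180 bases upstream; the later capitals are a match to AGGAAG, an Ets-type motif, on the opposite strand, 15 to 10 bases upstream.
PLAUR promoter, chr19:43670170-43670419: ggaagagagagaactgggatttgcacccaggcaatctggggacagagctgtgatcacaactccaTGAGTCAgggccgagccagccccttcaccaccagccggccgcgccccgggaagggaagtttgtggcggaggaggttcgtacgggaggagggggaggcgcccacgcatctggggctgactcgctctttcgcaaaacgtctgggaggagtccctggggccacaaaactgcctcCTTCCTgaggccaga
Over both strands TGANTCA was present in 6.57% of the 35116 promoter windows of this length, and AGGAAG in 28.7%. No window was searched for MMP1, MMP2 and TIMP2. For the other genes described here 8 windows of 7 genes were matched, of which 3 held AGGAAG, 6 held GGGCGG (42.6% of all), and none held TATAAA (10.7% of all) or the kappa-B motif (9.96% of all). The motifs do not overlap in the sequences printed. A match is a description of the letters, not of binding.

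The other genes of these systems, in 7 lists, gave no list in which 2-fold differences were common. Over all measured probe sets 0.829% were at least 2-fold higher and 0.734% lower, so a count of 0 in a short list says little. Of 18 other metalloproteinases 17 had a probe set and 5 were measured, all on 1 probe set. None was at least 2-fold different, 4 were above 0 and 1 below, and the median was 0.17. Of these, 2 were below the silent-family reference, MMP7 at 3.42 and 12.1 and MMP25 at 12.7 and 3.38. Their differences were bounds of 0.04 and -0.0019 after the floor was applied, so neither could have been counted as 2-fold. MMP9, the gelatinase also made by neutrophils and macrophages, gave 26.8 and 39.1 (difference 0.65, error 0.30). MMP9 and MMP10 were above 0 under all 4 scalings; MMP17, at 22.9 and 23.9, differed by 0.17.

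Among other inhibitors and regulators, 4 of 9 genes were measured on 8 probe sets, with none at least 2-fold higher, 1 lower and a median of -0.21. The lower one was SPOCK1, a matrix proteoglycan, at 35.4 and 15.9 (difference -1.05, error 0.49, 1 probe set). TFPI2, a serine protease inhibitor of the matrix that blocks plasmin, was higher on both probe sets, at 958 and 1054 (0.24, error 0.16) and at 221 and 369 (0.84, error 0.22). SERPINE2, an inhibitor of urokinase and thrombin, gave 181 and 196 (0.22, error 0.22). RECK, a membrane-anchored metalloproteinase inhibitor named after its values were seen, was lower on 4 of 4 measured probe sets, at -0.09, -0.33, -0.35 and -0.71 with errors of 0.22, 0.30, 0.30 and 0.49; the sign was the same under all 4 scalings.

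The plasminogen system and receptor partners had 27 measured probe sets of 13 genes, none at least 2-fold different and a median of -0.06. ENO1, a plasminogen-binding protein at the cell surface besides its role in glycolysis, was at 9484 and 9469 on its brightest probe set. ITGB1, the integrin subunit that associates with PLAUR, was at 6564 and 6327. On those probe sets the differences were 0.10 and 0.05 after centring and -0.0024 and -0.05 as deposited, so that their sign depends on the centring. ITGB1 was below 0 under all 4 scalings on 1553678_a_at (2828 and 2482, -0.08) and 1553530_a_at (2485 and 2160, -0.10), each with an error of 0.10. The remaining measured ENO1 probe sets were at 0.015 and 0.22 after centring.

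Activators and surface partners had 19 measured probe sets of 12 genes, none at least 2-fold different and a median of 0.0025. CD63, a tetraspanin that binds TIMP1, gave 2723 and 2288 (-0.14, error 0.10). FURIN, which activates MMP11 and MMP14, gave 44.0 and 28.2 (-0.53, error 0.30); it was named after its value was seen. CD9, another tetraspanin, was at 1902 and 1771, a difference of 0.0025 after centring and -0.10 as deposited.

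The ADAM and ADAMTS proteinases had 19 measured probe sets of 10 genes, none at least 2-fold different and a median of 0.09. ADAM9 was at 4817 and 5287 on its brightest probe set (0.24, error 0.10), with 3 of 3 above 0 after centring; 1 of these, 1555326_a_at at 0.09, was at -0.02 as deposited. ADAM10, a sheddase of surface proteins, was at 945 and 955 (0.12, error 0.16), with another probe set at -0.32.

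Matrix substrates had 22 measured probe sets of 11 genes, 1 at least 2-fold lower, none higher and a median of -0.06. The lower one was ELN, elastin, at 26.2 and 11.8, a bound of -1.05 with an error of 0.49, on 1 probe set. COL4A1, a chain of basement membrane collagen, gave 467 and 402 (-0.11, error 0.22) on its brightest probe set and 58.7 and 66.2 (0.28, error 0.30) on another. LAMC1, a laminin chain, gave 929 and 831 (-0.06, error 0.16) and, on another, 280 and 271 (0.06, error 0.22; -0.05 as deposited).

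Transcription factors that act on these promoters had 33 measured probe sets of 16 genes, none at least 2-fold different and a median of -0.08. JUND, a part of AP-1, gave 1212 and 1019 on its brightest probe set (-0.14, error 0.16), with 4 of 4 below 0. SP1, which binds GC boxes, gave 634 and 538 (-0.13, error 0.16), with 3 of 4 below 0.

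**Figure D4:**
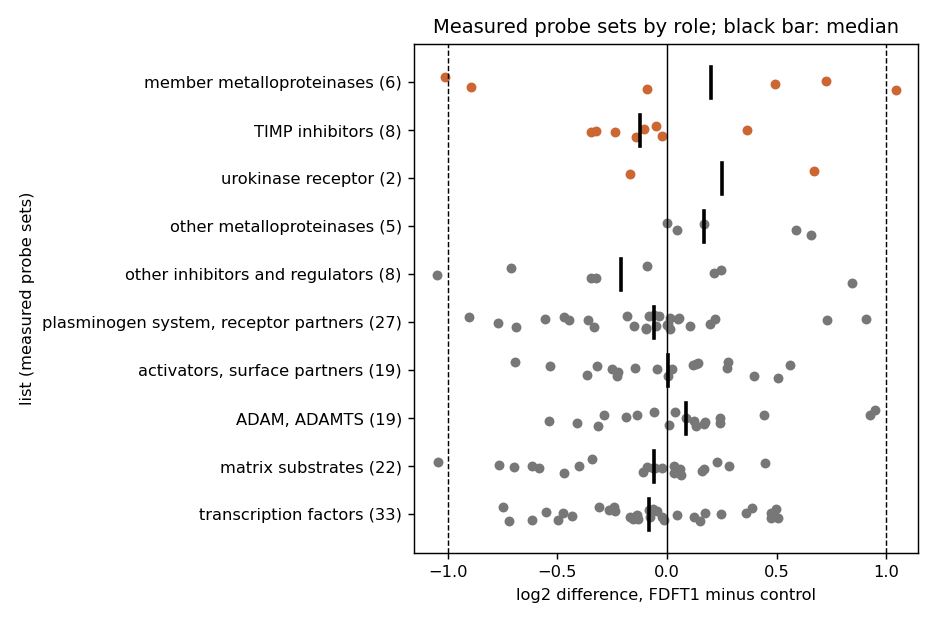
Log2 differences (FDFT1 minus control, centred) of measured probe sets by role, with their number in brackets and a black bar at the median; the metalloproteinase, TIMP and PLAUR probe sets are coloured and the other lists grey. The TIMP points lie between -0.35 and 0.36, the metalloproteinase points range from -1.01 to 1.04, and in the grey lists the points below -1 are those of SPOCK1 and ELN.

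The labels call the cells alveolar type II, and markers of that type were partly present. Of 12 markers 10 had a probe set and 7 were measured, with LPCAT1 at 934 and 787 and ETV5 at 383 and 281, but NAPSA, SFTPD and SLC34A2 under the floor and SFTPC under it on 4 of 5 probe sets. Of 6 epithelial markers 4 were measured, and CDH1 and KRT19 were under the floor. EPCAM was below the silent-family reference, at 5.63 and 14.4. KRT18 gave 20.1 and 12.1, KRT8 15.0 and 18.8, and KRT7 16.2 and 19.3 on its only measured probe set. Markers of other cells that can make these proteases were looked at too. Of 8 macrophage and neutrophil markers 7 had a probe set and 3 were measured, each below the silent-family reference, and their summed signal was 68.3 on the control array and 60.6 with FDFT1. Of 8 fibroblast markers 3 were measured and 5 were under the floor. POSTN was at 694 and 760 and COL1A1 at 65.5 and 83.0 on their brightest probe sets. Of the 6 measured probe sets of this list, 2 were higher with FDFT1 and 4 lower, with a median difference of -0.13. The summed signal of the list was 1083 and 1139. Both samples were cultures of the CL1-0 line, so these signals describe marker RNA in that line. The relation of these markers to the differences above was not tested. The 3′ to 5′ signal ratio of GAPDH, a sign of RNA integrity, was 0.959 on the control array and 1.01 with FDFT1.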

How the data were processed

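RNA of 2 CL1-0 cultures, grouped by their titles, was measured on 1 Affymetrix array each. The authors deposited a signal intensity for each probe set and array, made with MAS5 per the submitters' processing notes. No version, scaling target or detection call is given in the sources used here. The number of arrays limits the precision.

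The 62 control probe sets were set aside. Log2 signals were centred on the median difference over probe sets at or above the floor on both arrays, with the shift split between the arrays, and lower values were set to the floor (signal 12.2). A 2-fold difference was the rule for counting. The probe set error came from the brightest and second brightest probe sets of a gene in 1 signal range. Probe sets were named through the platform's annotation table. All 27 probe sets of the 10 genes are named; of other lists, genes with a 2-fold difference or with all of at least 2 probe sets on one side and the brightest at least 0.5 away, plus the 2 brightest of each list, are named, and further examples are marked. The genes and lists were chosen with earlier results of these data known. Alternatives were other scalings (none, quantile, loess), other floors and pseudocounts, probe set types and folds. Steps were run with Python 3.11.15, numpy 2.4.6, pandas 2.3.3 and statsmodels 0.14.6. They were tested on simulated data with changes planted only in probe sets with a log2 signal above 7. That test does not cover the dimmer range in which the metalloproteinase probe sets lay.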

Additional observations from a re-analysis of the deposited data

How the results depend on the processing

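No paired analysis was possible because each group has 1 array. The count of probe sets at least 2-fold higher was 1 with median centring (MMP1) and 0 as deposited, after quantile normalization and after loess. It was also 0 with the floor at the 75th percentile (signal 99.4) and with a pseudocount of 16 in place of the floor. With no floor and a pseudocount of 1 it was 2 of 27, for MMP14 202827_s_at and MMP11 235908_at, and MMP1 lay at 0.99. In that setting 11.2% of all probe sets were at least 2-fold higher and 9.66% at least 2-fold lower. The count at least 2-fold lower, 1 (MMP11 203878_s_at), stayed at 1 under the other scalings; it was 0 with the higher floor, with the pseudocount of 16 and without _x_at and _s_at probe sets, and with no floor it was 1, that probe set being MMP2 1566677_at. At 1.5-fold the counts were 3 higher and 2 lower, and at 3-fold 0 and 0. The median difference stayed below 0 under every alternative run, from -0.18 as deposited to -0.02 with the pseudocount of 16. Over all probe sets compared, the median was -0.098 as deposited and 0.0070 with the pseudocount of 16. No measured probe set changed sign under the alternatives run. With the pseudocount of 16 MMP1 was at 0.54. The low signals limit all metalloproteinase values: only 3 probe sets, those of TIMP2, remained with the higher floor.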
